A study of Mus musculus with 4 samples.

Results

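Chemokine ligands are small secreted proteins that steer leukocytes, named for the spacing of their conserved cysteines as CC (Ccl), CXC (Cxcl), CX3C (Cx3cl) and XC (Xcl) chemokines. Each binds 1 or more G protein-coupled receptors on the responding cell, and atypical receptors take chemokines up without the usual signalling. In the lung, epithelium, stroma, endothelium and resident macrophages all make chemokines, some constantly and some only on stimulation. The 39 protein-coding genes described here were taken by symbol from the 48709 genes of the table, as all Ccl and Cxcl genes together with Cx3cl1, Xcl1, Pf4 and Ppbp. Of these, 22 had a mean of at least 10 normalized read counts over the 4 libraries and were tested.

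RNA came from the left lung lobe of untreated C57BL/6 mice at postnatal day 1. The 2 RykSL/SL mice, called mutant here, were homozygous for SL, an allele of the WNT receptor gene Ryk, and were compared with 2 wild-type mice. Neither the effect of SL on the protein nor the sex or litter of the mice is stated in the labels. Ryk transcript stood at 2757 and 2203 in mutant lobes, against 2528 and 2525 in wild-type lobes, so its level does not check the genotype labels. Mutant replicate 1 had 24836 normalized counts of Xist and the other 3 lungs 7 to 23, and the Y-linked Ddx3y had 56 in that lung and 2197 to 3769 in the others; their part in the ligand values was not tested. Normalized totals were 18658239 to 19987634 per library. Values come from whole lobes, in which fewer cells of a type and less RNA per cell cannot be told apart.

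The letters of Ccl21 are shown first because the rows of its copies share reads. Ccl21a is at chr4:42772860-42773993 on the minus strand and Ccl21b at chr4:42255767-42256432 on the plus strand (GRCm38). Their coding sequences, both 402 bases in GENCODE M21, differ at 2 bases, T84A and C194T, counted from 1 at the first base of the start codon, with the base of Ccl21a first. The second changes an amino acid and separates the forms known as the serine and leucine forms of the protein. Coding bases 59 to 219 are given with the differing bases in capitals, and the rows Gm13304, Gm21541 and Gm10591 had the same letters as Ccl21b throughout the coding sequence.
Ccl21a: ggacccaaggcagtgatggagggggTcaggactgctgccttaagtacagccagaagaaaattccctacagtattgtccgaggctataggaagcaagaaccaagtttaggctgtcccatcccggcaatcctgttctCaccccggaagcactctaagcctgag
Ccl21b: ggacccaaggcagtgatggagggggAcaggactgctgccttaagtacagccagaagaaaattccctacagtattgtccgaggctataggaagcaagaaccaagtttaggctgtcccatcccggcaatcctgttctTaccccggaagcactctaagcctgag

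The promoter of Cxcl15, the most abundant ligand, is shown with the motif TATAAA in capitals, 250 bases before the start of transcription to 50 after it (RefSeq, GRCm38.p6, chr5:90794284-90794583, plus strand).
Cxcl15: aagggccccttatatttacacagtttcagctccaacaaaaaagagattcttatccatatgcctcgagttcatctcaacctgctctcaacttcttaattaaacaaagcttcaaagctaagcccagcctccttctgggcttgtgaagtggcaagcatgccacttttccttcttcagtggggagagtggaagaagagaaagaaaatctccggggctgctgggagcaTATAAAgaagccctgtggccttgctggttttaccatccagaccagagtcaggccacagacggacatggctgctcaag

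The match began 27 bases before the start. On either strand, TATAAA was found in 6 of the 17 tested ligands with a RefSeq promoter and in 14.2% of all 27025 promoters of the same length. The NF-kappaB consensus was found in 7 of the 29 ligands with a promoter, 1 of them tested, and in 5.55% of all promoters. ACANNNTGT, the spacing of glucocorticoid receptor elements, was found in 0 of the 17, in 1 of the 29 and in 6.9%. These matches describe letters and no binding.

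Of the 22 tested ligands, 3 were called lower and none higher: Cxcl15, Ccl21a and Ccl21b, of which the Ccl21 rows share reads. Over all 18436 tested genes, 2.39% were called, 0.917% lower and 1.47% higher (limma on log2(normalized count + 1), Benjamini-Hochberg adjusted p under 0.05). At an unadjusted p under 0.05, 9 ligands were lower and 1 was higher, and 20.1% of all tested genes passed that level in either direction. Both mutant libraries lay below both wild-type libraries for 12 ligands and above them for 2, while 26.9% of all tested genes lay below and 25.7% above. The median log2 difference, mutant minus wild type, was -0.85 over the tested ligands and -0.016 over all tested genes.

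Set against the wild-type mean, the ligand median was -0.82 for mutant replicate 1 and -1.02 for mutant replicate 2. The number of calls rested on few libraries, among all tested genes as among the ligands. No ligand was called when mutant replicate 2 or either wild-type library was left out, and 8 were lower and 1 was higher when mutant replicate 1, which had the high Xist, was left out: Cxcl15, Ccl21a, Ccl21b, Cxcl12, Cx3cl1, Cxcl14, Ppbp and Ccl7 were lower and Cxcl16 was higher. No ligand was called either without the filter on low values, where 0 of all genes were called, or without the mean-variance trend, where 72 were. An exact permutation test of 2 against 2 libraries cannot give a two-sided p below 0.333.

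**Figure D1:**
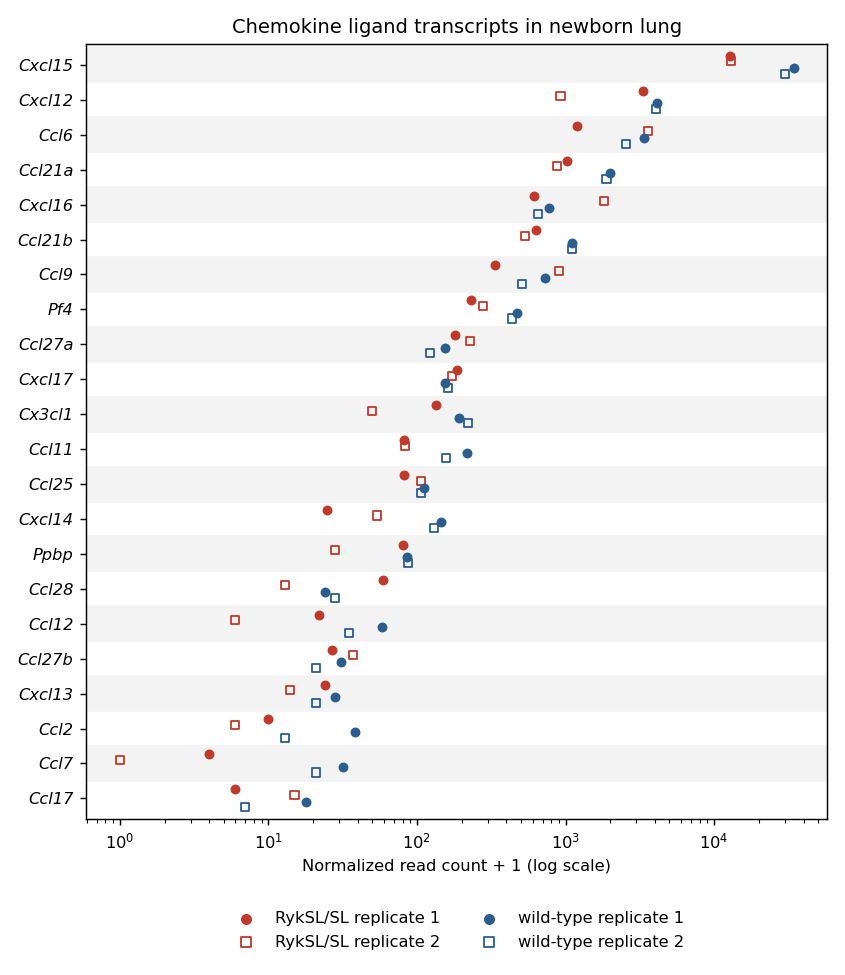
Normalized read count + 1 of the 22 tested chemokine ligands in each library on a log axis, ordered by their mean; red marks are RykSL/SL lungs and blue marks wild-type lungs, filled circles replicate 1 and open squares replicate 2. Cxcl15 stands far to the right of the other ligands, with both mutant lungs below both wild-type lungs, and the mutant lungs lie far apart for Cxcl12, Ccl6, Cxcl16 and Ccl9.

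**Figure D2:**
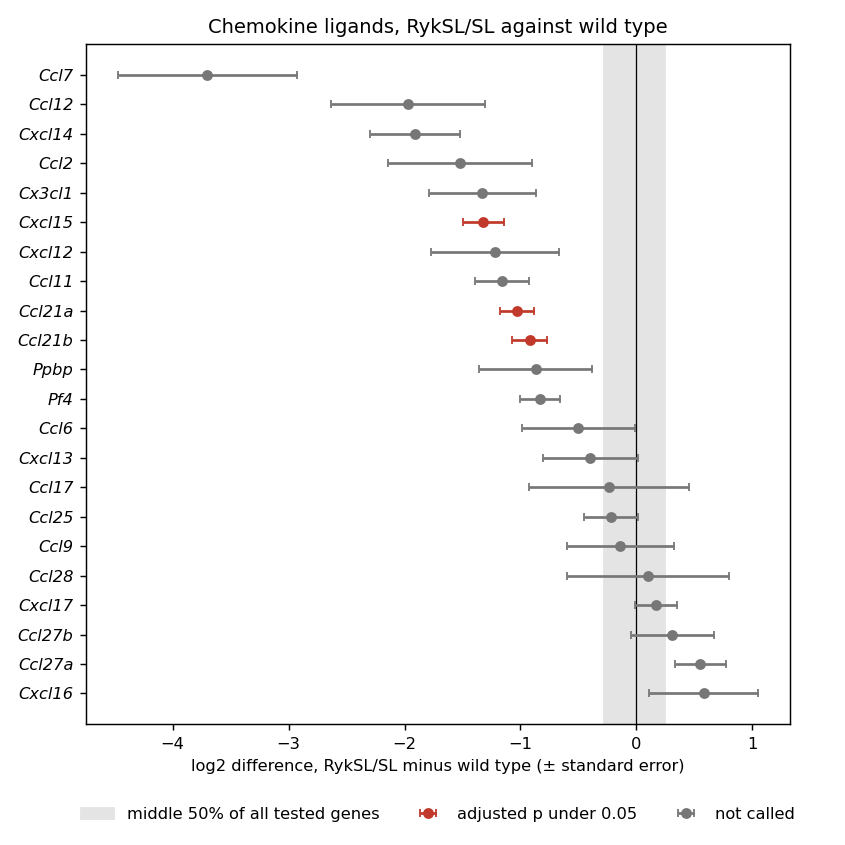
Log2 difference, RykSL/SL minus wild type, with its standard error (limma, 2 libraries per genotype) for the 22 tested ligands; the grey band holds the middle 50% of all tested genes. The 3 called ligands, in red, have short error bars, whereas Ccl7 at -3.70 has the largest difference and a standard error of 0.77.

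Cxcl15, also called lungkine, is a mouse chemokine of lung epithelium that attracts neutrophils, and its gene is at chr5:90794534-90803067 on the plus strand. It had 12794 and 13009 normalized counts in mutant lobes, against 34355 and 30055 in wild-type lobes. The mutant lungs were nearly equal and well below both wild-type lungs. The log2 difference was -1.32 (standard error 0.18, limma adjusted p = 0.0292), and it lay between -1.42 and -1.22 in all 14 alternative fits, of which 9 kept the call. Per kilobase of exon Cxcl15 averaged 10600 normalized counts, against 2090 for the row of Ccl21b and 1660 for that of Ccl21a, the next highest. The rank of the Ccl21 rows is uncertain, because they share reads. Their exon lengths also differ, at 402 bases for Ccl21b and 870 for Ccl21a. Cxcl15 made up 60.6% and 57.0% of the summed ligand counts in mutant lobes, against 71.1% and 70.8% in wild-type lobes.

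Beside Cxcl15, none of 12 listed alveolar type 2 cell genes was called, with a median log2 difference of -0.33. Their summed counts were 331914 and 282482 in mutant lobes, against 413128 and 365776 in wild-type lobes. Of these 12 genes, 7 had both mutant lungs below both wild-type lungs and 1 had both above, beside 26.9% and 25.7% of all tested genes. The part of cell number in the lower Cxcl15 was not tested. Without Cxcl15, the ligand sum was still lower, at 8319 and 9796 in mutant lobes, against 13962 and 12383 in wild-type lobes.

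The Ccr7 ligands Ccl21 and Ccl19 guide dendritic cells and naive lymphocytes along lymphatic vessels and into lymphoid tissue. Ccl21a had 1023 and 876 normalized counts in mutant lobes, against 1985 and 1886 in wild-type lobes, a log2 difference of -1.03 (standard error 0.15, limma adjusted p = 0.0310). Ccl21b had 633 and 536 in mutant lobes, against 1097 and 1102 in wild-type lobes, a difference of -0.92 (standard error 0.15, limma adjusted p = 0.0421). In both rows the mutant lungs were close to each other and below the wild type, with no overlap. Summed into 1 row before the fit, they were again lower (-0.99, adjusted p = 0.0333).

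These rows are not separate measurements. Gm13304 and Gm21541 both stood at 1023 and 829 in mutant lobes, against 1823 and 1778 in wild-type lobes. Gm10591 stood at 633 and 536 in mutant lobes, against 1097 and 1103 in wild-type lobes, within 1 count of Ccl21b in every library. All 50-base sequences of the Ccl21b transcript also occur in other genes, as do 71.6% of those of Ccl21a. The excess of Ccl21a over Gm13304 was 0 and 47 in mutant lobes, against 162 and 108 in wild-type lobes. The sum of the 5 rows, an alternative chosen after seeing the data, was lower in the mutant as well (-0.97, adjusted p = 0.0432).

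**Figure D3:**
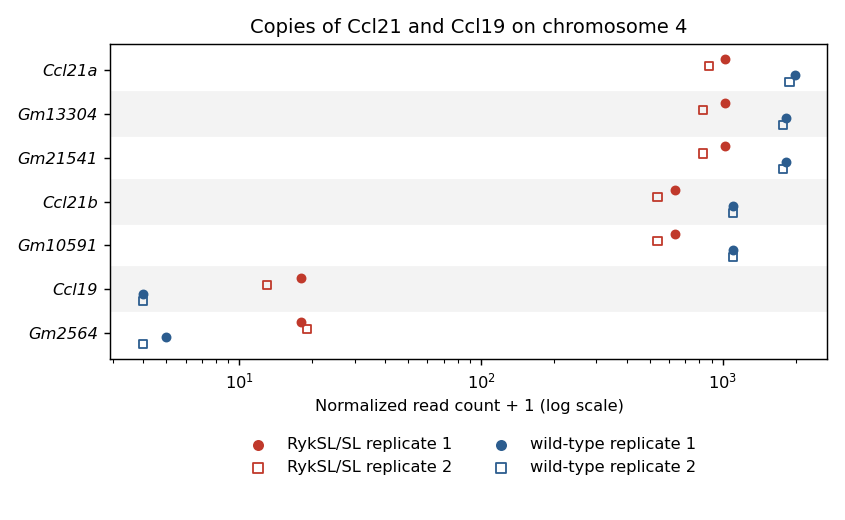
Normalized read count + 1, on a log axis, of the 5 Ccl21 rows and of Ccl19 with its copy Gm2564 in each library; red marks are RykSL/SL lungs, blue marks wild-type lungs, filled circles replicate 1 and open squares replicate 2. Gm13304 and Gm21541 coincide, as do Ccl21b and Gm10591 within 1 count, and the mutant lungs lie below the wild type for Ccl21 and above it for Ccl19.

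Ccl19 was below the minimum mean and was not tested. It had 17 and 12 in mutant lobes, against 3 in each wild-type lobe, the opposite order to Ccl21, and 52.0% of its 50-base sequences are shared. Ccl27a, a ligand of Ccr10 known from skin, had 180 and 225 in mutant lobes, against 154 and 122 in wild-type lobes (0.55, standard error 0.22, adjusted p = 0.240). Its copy Ccl27b had 26 and 36 in mutant lobes, against 30 and 20 in wild-type lobes, which overlap. All these genes lie in 1 duplicated stretch of chromosome 4, in which all 21 other tested rows had both mutant lungs above both wild-type lungs. The part of reads from those copies in the values of Ccl19 and Ccl27a was not tested. Ccl21a and Ccl21b lie in this stretch too, and its part in their lower values was not tested either. Lymphatic endothelial genes were not called in any of 7 cases, with a median log2 difference of 0.15. Both mutant lungs lay above both wild-type lungs for 4 of the 7 and below for 0, beside 25.7% and 26.9% of all tested genes. Their sums were 11878 and 12800 in mutant lobes, against 10836 and 11511 in wild-type lobes. Most of each sum was Lyve1, at 7410 and 8628 in mutant lobes, against 6512 and 7117 in wild-type lobes. The receptor Ccr7 was below the minimum mean, at 2 and 7 in mutant lobes, against 4 and 13 in wild-type lobes.

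Cxcl12, the stromal ligand of Cxcr4, retains and recruits haematopoietic and endothelial cells. It had 3333 and 924 normalized counts in mutant lobes, against 4118 and 4070 in wild-type lobes. Both mutant lungs were lower, but they differed from each other by 1.85 on the log2 scale, and the difference of -1.22 did not pass (standard error 0.55, adjusted p = 0.280). Its receptor Cxcr4 was called lower, with 345 and 610 in mutant lobes, against 1428 and 1365 in wild-type lobes (chr1:128588199-128592293; -1.60, standard error 0.27, limma adjusted p = 0.0454). Cxcr4 was not called when mutant replicate 2 or either wild-type library was left out. In Cxcr4 the lower mutant library was replicate 1, and in Cxcl12 it was replicate 2. Ackr3, which removes Cxcl12, had 1790 and 1760 in mutant lobes, against 1197 and 1236 in wild-type lobes, a difference of 0.54 that did not pass (adjusted p = 0.101).

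The monocyte attractants Ccl2, Ccl7 and Ccl12 are ligands of Ccr2, and Ccl11, or eotaxin, draws eosinophils through Ccr3. They lie side by side on chromosome 11, and in all 4 both mutant lungs were below both wild-type lungs, though none passed. Ccl7 had 3 and 0 in mutant lobes, against 31 and 20 in wild-type lobes, and its log2 difference of -3.70 (adjusted p = 0.0753) depends on the pseudocount, being -4.26 with 0.5 and -1.82 with 8. With a pseudocount of 8 it passed (adjusted p = 0.0493). Ccl12 had 21 and 5 in mutant lobes, against 57 and 34 in wild-type lobes (-1.97, adjusted p = 0.185).

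Ccl2 had 9 and 5 in mutant lobes, against 37 and 12 in wild-type lobes (-1.52, adjusted p = 0.250), so it rests on few reads. Ccl11 was steadier, with 81 and 82 in mutant lobes, against 216 and 156 in wild-type lobes (-1.16, standard error 0.23, adjusted p = 0.0687). The remaining genes of the same cluster, Ccl8 and Ccl1, were at 1 or 0 in every library. The receptor Ccr2 had 373 and 95 in mutant lobes, against 443 and 466 in wild-type lobes (-1.26, adjusted p = 0.292), and Ccr3 did not exceed 6.

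Cx3cl1, or fractalkine, and Cxcl16 are the chemokines anchored in the membrane by a stalk. Cx3cl1 had 134 and 49 in mutant lobes, against 192 and 221 in wild-type lobes, lower in both mutant lungs but not called (-1.33, adjusted p = 0.192). Its receptor Cx3cr1, a gene of monocytes and macrophages, had 109 and 16 in mutant lobes, against 424 and 421 in wild-type lobes. That difference, -3.29 with a standard error of 0.80, did not pass either (adjusted p = 0.103). Cxcl16, the ligand of Cxcr6, had 617 and 1818 in mutant lobes, against 773 and 651 in wild-type lobes. Mutant replicate 1 lay below both wild-type lungs and mutant replicate 2 above them, so the difference of 0.58 has no common direction (adjusted p = 0.539); it was 1.36 without mutant replicate 1 and -0.20 without mutant replicate 2. Exons of 1 gene on the opposite strand overlap Cxcl16.

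Ccl6 and Ccl9 are ligands of Ccr1 made by myeloid cells, and they lie next to each other on chromosome 11. Ccl6 had 1193 and 3597 in mutant lobes, against 3393 and 2543 in wild-type lobes (-0.50, adjusted p = 0.611). Ccl9 had 336 and 904 in mutant lobes, against 728 and 508 in wild-type lobes (-0.14, adjusted p = 0.895). Both were lowest in mutant replicate 1 and highest in mutant replicate 2, the same order as Cxcl16. Macrophage genes had 1 of 12 called lower, beside 0.917% of all tested genes: Siglecf, with 3 and 2 in mutant lobes, against 36 and 30 in wild-type lobes (-3.29, adjusted p = 0.0266). The macrophage median was -0.54, and 10 of the 12 genes had both mutant lungs below both wild-type lungs, beside 26.9% of all tested genes. Their summed counts were 4964 and 4592 in mutant lobes, against 5637 and 5120 in wild-type lobes. Those sums include Mertk, the one gene of the list with both mutant lungs above, at 1681 and 1410 in mutant lobes, against 864 and 886 in wild-type lobes (0.81, adjusted p = 0.0563). Ccr1 had 245 and 306 in mutant lobes, against 454 and 332 in wild-type lobes (-0.50, adjusted p = 0.270).

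The neighbours Pf4 and Ppbp encode chemokines of platelet granules. Pf4 had 229 and 279 in mutant lobes, against 471 and 433 in wild-type lobes, with no overlap and a difference just short of the threshold (-0.83, standard error 0.17, adjusted p = 0.0763). Ppbp had 79 and 27 in mutant lobes, against 85 and 86 in wild-type lobes (-0.87, adjusted p = 0.378). None of 12 other platelet and megakaryocyte genes was called, and their median difference was 0.03. Their sums were 1580 and 1462 in mutant lobes, against 1450 and 1425 in wild-type lobes. Those sums include Itgb3, at 528 and 590 in mutant lobes, against 424 and 436 in wild-type lobes. It was the 1 gene of the 12 with both mutant lungs above both wild-type lungs, and 2 had both below. Over all tested genes, 25.7% lay above and 26.9% below.

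Among the remaining homeostatic ligands, Cxcl14, an epithelial and stromal chemokine, had the most negative log2 difference. It had 24 and 53 in mutant lobes, against 144 and 130 in wild-type lobes (-1.91, standard error 0.39, adjusted p = 0.0732). Cxcl13, which draws B cells through Cxcr5, had 23 and 13 in mutant lobes, against 27 and 20 in wild-type lobes (-0.40, adjusted p = 0.632). The groups did not overlap for Cxcl14 and did for Cxcl13. B-cell genes fell in 3 of 9 tested cases, Ms4a1, Igkc and Ighm, beside 0.917% of all tested genes, with summed counts of 456 and 331 in mutant lobes, against 1073 and 1063 in wild-type lobes. Cxcr5, the receptor for Cxcl13, had 36 and 22 in mutant lobes, against 28 in each wild-type lobe (0.01, adjusted p = 0.992).

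The mucosal ligands did not pass. Cxcl17 had 186 and 170 in mutant lobes, against 154 and 161 in wild-type lobes (0.17, adjusted p = 0.634). Ccl25, the ligand of Ccr9, had 81 and 106 in mutant lobes, against 110 and 106 in wild-type lobes (-0.22, adjusted p = 0.641). The Ccr10 and Ccr3 ligand Ccl28 had 58 and 12 in mutant lobes, against 23 and 27 in wild-type lobes, so the mutant lungs straddled the wild type. Ccl17, a ligand of Ccr4, had 5 and 14 in mutant lobes, against 17 and 6 in wild-type lobes, with no order. It was also the tested ligand nearest the minimum mean, at 10.5, and Ccl3 was the nearest below it, at 9.5.

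The other 17 ligands stayed below the minimum mean, with no library above 21. Ccl1 and Ccl26 were listed at 0 in every library. Of the ligands that draw neutrophils through Cxcr2, Cxcl1 had 1 and 12 in mutant lobes, against 8 and 3 in wild-type lobes. Cxcl2 had 3 and 16 in mutant lobes, against 8 and 5 in wild-type lobes, and Cxcl3 and Cxcl5 did not exceed 8. Mutant replicate 2 was thus the highest library for Cxcl1 and Cxcl2. The interferon-induced Cxcl10 had 3 and 6 in mutant lobes, against 20 and 6 in wild-type lobes, and Cxcl9 did not exceed 3. Ccl3, Ccl5, Ccl22, Ccl24 and Cxcl5 had both mutant lungs below both wild-type lungs, and Ccl19 alone had both above. These are 5 and 1 of the 17, beside 26.9% of all tested genes below and 25.7% above. Ccl4, Ccl8, Ccl20 and Xcl1 did not exceed 5. These values rest on few reads, and no difference was tested.

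The mutant lungs differed from each other more than the wild-type lungs did. Over the 22 tested ligands the median absolute gap between replicates was 0.94 on the log2 scale in the mutant and 0.23 in the wild type, and over all tested genes it was 0.32 in the mutant and 0.13 in the wild type. The mutant gap was the larger for 16 of the 22 ligands, and for 74.4% of all tested genes.

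Of 24 listed receptors, 12 were tested, and 1 was lower and none higher, against 0.917% and 1.47% of all genes. At an unadjusted p under 0.05, 3 were lower and 1 was higher, beside 20.1% of all tested genes in either direction. The 8 tested conventional receptors had a median log2 difference of -0.94, and the 4 tested atypical receptors one of 0.43. Cxcr2, the neutrophil receptor, had 131 and 141 in mutant lobes, against 137 and 103 in wild-type lobes (0.19, adjusted p = 0.676). Among the atypical receptors, the CC scavenger Ackr2 had 596 and 232 in mutant lobes, against 228 and 281 in wild-type lobes (0.55, adjusted p = 0.516). Ccrl2 had 401 and 440 in mutant lobes, against 331 and 346 in wild-type lobes (0.31, adjusted p = 0.318). Ackr4, which removes Ccl19 and Ccl21, had 23 and 25 in mutant lobes, against 38 and 26 in wild-type lobes (-0.38, adjusted p = 0.572), and Ackr1 did not exceed 9.

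**Figure D4:**
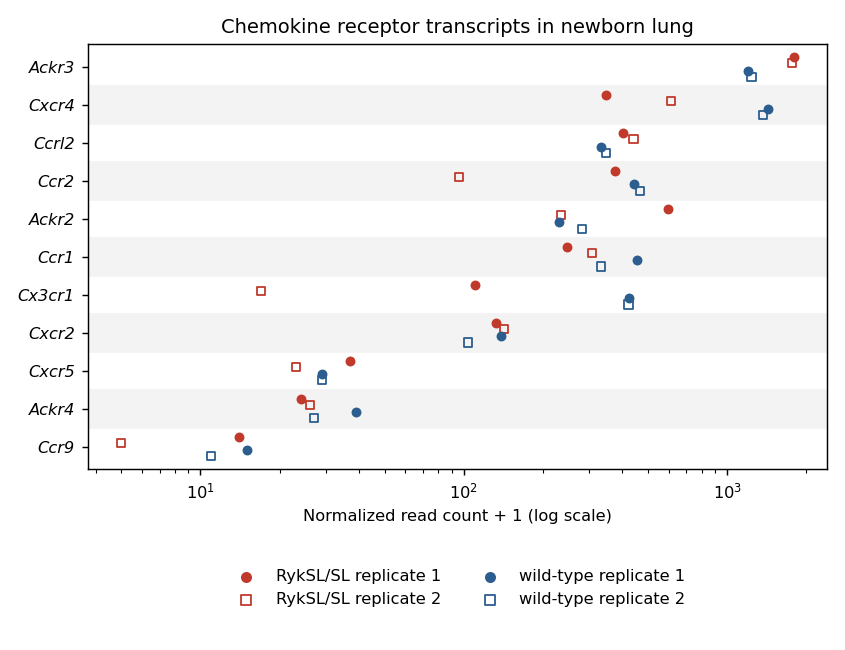
Normalized read count + 1 of tested chemokine receptors in each library on a log axis, ordered by their mean; red marks are RykSL/SL lungs and blue marks wild-type lungs, filled circles replicate 1 and open squares replicate 2. Cxcr4 and Cx3cr1 have both mutant lungs well below the wild type, and Ackr3 has both above, at 1790 and 1760 in mutant lobes, against 1197 and 1236 in wild-type lobes.

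Gene lists of signals that act on chemokine transcription gave differing counts. Of 18 tested NF-kappaB and cytokine genes, 1 rose and 2 fell, beside 1.47% of all tested genes called higher and 0.917% called lower, and their median was 0.06. The inhibitor gene Nfkbia had 3065 and 2859 in mutant lobes, against 1089 and 1099 in wild-type lobes (1.44, standard error 0.13, adjusted p = 0.0109). The adhesion molecule gene Vcam1 had 727 and 452 in mutant lobes, against 1837 and 1534 in wild-type lobes (-1.55, adjusted p = 0.0394), and Cd40 fell by 1.06 on the log2 scale (adjusted p = 0.0306). Of 20 interferon-response genes 1 fell, Ifit1 (-1.23, adjusted p = 0.0341), beside 0.917% of all tested genes, and the median was -0.54. Both mutant lungs lay below both wild-type lungs for 17 of the 20 and above for 0, beside 26.9% and 25.7% of all tested genes. All 12 glucocorticoid-response genes, a list written with their increase already known, were higher in the mutant, beside 1.47% of all tested genes, with a median of 2.05. Their smallest p was that of the transcription factor gene Zbtb16, with 3519 and 4578 in mutant lobes, against 129 and 202 in wild-type lobes (4.63, adjusted p = 0.00415), and next came Ddit4 (2.67), Fkbp5 (2.92) and Cdkn1a (2.72), each with an adjusted p of 0.00439. None of 12 genes for chemokine-like ligands and ligand-processing proteases was called, and their median was -0.21.

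Markers of other cells and neighbouring tissues were counted in the same way. Neutrophil genes had 1 of 10 called, Mmp8, which rose by 1.54 on the log2 scale (adjusted p = 0.0180), beside 1.47% of all tested genes, and a median of -0.05. None of 3 tested T and NK cell genes, 6 dendritic cell, 5 mast cell, 8 blood endothelial, 5 mesothelial or 8 red blood cell genes was called. Mesothelial counts summed to 9803 and 20395 in mutant lobes, against 15128 and 13044 in wild-type lobes, the same order over libraries as Cxcl16, Ccl6 and Ccl9. Summed neutrophil counts had this order too, at 7098 and 10326 in mutant lobes, against 7394 and 7339 in wild-type lobes. Most of that sum was S100a8 and S100a9. S100a8 had 2116 and 3711 in mutant lobes, against 2346 and 2258 in wild-type lobes. S100a9 had 2724 and 4445 in mutant lobes, against 3270 and 3209 in wild-type lobes. The order was not general in the list: Camp had it, but Ngp, Ltf and Mmp9 were lowest in mutant replicate 2. Cardiac muscle genes fell in 2 of 6 tested cases, Myl7 and Myl4, beside 0.917% of all tested genes, with sums of 3501 and 3377 in mutant lobes, against 6666 and 6625 in wild-type lobes. None of the 2 tested thymus genes was called, and Foxn1, Dntt, Rag2, Ptcra and Psmb11 were at 3 or less in every library. The part of these tissues in the ligand values was not tested.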

How the data were processed

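The authors deposited normalized read counts per gene, rounded to whole numbers and treated here as a score, for 2 mutant and 2 wild-type mice. Libraries were stranded poly(A) mRNA libraries, per the labels' protocols. Per the submitters' processing notes, FastQC, STAR 2.4.0a, featureCounts 1.5.1, Subread and DESeq2 1.14.1 were used, and mm10 and GRCm38 are named as builds. The sources used here do not state the scaling, the use of strand in counting or the handling of multiply aligned reads. The pattern of rounding gave estimated values per read of 0.855 in mutant replicate 1, 1.17 in mutant replicate 2, 0.987 in wild-type replicate 1 and 0.998 in wild-type replicate 2, so mutant replicate 2 had the fewest reads. Where this value is below 1, counts merge on rounding, so whole reads could not be recovered and count models were not used.

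Genes averaging at least 10 across the libraries were tested with limma 3.58.1 (R 4.3.3), with a mean-variance trend (4.07 prior degrees of freedom), on log2(value + 1), two-sided, with Benjamini-Hochberg adjustment over 18436 genes. Fold changes on this scale understate the change of low genes. The fit was tested on simulated data with the same spread in both genotypes, which these libraries did not have. Alternatives were pseudocounts of 0.5 and 8, no filter, a mean of at least 50, equal library totals, quantile normalization, no trend, the replicate number as a block, leaving out each library and summing Ccl21 copies. All tested ligands are named, and of receptors those called, the receptors of called ligands and the atypical ones; further receptors and list genes were named after their values were seen. Values of 1 tested receptor are not reported here, and it stays in the counts. The ligands and lists were chosen with earlier results of these data known. Shared 50-base sequences, on either strand, and exon lengths came from GENCODE M21, and promoters from RefSeq (1 per gene, the first listed). Python 3.11.15, pandas 2.3.3, numpy 2.4.6 and matplotlib 3.10.9 were used.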

Additional observations from a re-analysis of the deposited data

How the results depend on the processing

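The 3 ligand calls and the Cxcr4 call held with pseudocounts of 0.5 and 8, a mean of at least 50, equal library totals, quantile normalization, the summed Ccl21 rows and without mutant replicate 1. Without a filter on low values, limma called 0 of all genes (4876 at an unadjusted p under 0.05), 0 ligands and 0 receptors, and without the trend 72 genes, 0 ligands and 0 receptors. Leaving out 1 library gave 0 to 2385 genes, 0 to 1 ligands higher, 0 to 8 lower, 0 to 1 receptors higher, 0 to 4 lower, and a ligand median of -1.02 to -0.76; the lone library left is then assumed to vary like the other genotype. The count was 2385 without mutant replicate 1 and 0 without any other library (5249, 917 and 1133 genes at an unadjusted p under 0.05 without mutant replicate 2, wild-type replicate 1 and wild-type replicate 2). With the replicate number as a replicate block, 766 genes, 7 ligands lower and 2 receptors lower passed. Same-numbered libraries share only a number: their deviations from the group means had a correlation of -0.0579 over 18436 genes. Signs changed in at least 1 alternative for 9 uncalled genes (Ccl6, Ccl9, Ccl17, Ccl28, Cxcl16, Ccr9, Cxcr2, Cxcr5 and Ackr2). A normalized count under about 10 rests on a few reads.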

Other observations

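The stretch of chromosome 4 from Ccl27a to Ccl21a (chr4:41769467-42773993, GRCm38) holds 42 rows of the table, of which 34 are neither ligands nor Ccl21 copies. It was examined after its values were seen. Of the 21 tested among those 34, 10 were called higher and none lower (limma, adjusted p under 0.05; 1.47% of all tested genes were called higher), and in all 21 both mutant lungs lay above both wild-type lungs, as in 25.7% of all tested genes. The log2 differences ran from 0.49 to 2.93, with a median of 1.77. Gm17167 had 127 and 136 in mutant lobes, against 24 and 21 in wild-type lobes, a difference of 2.50 (standard error 0.25, adjusted p = 0.0133). The family members Fam205a2 and Fam205a3 both had 100 and 83 in the mutant lungs, against 27 and 24 for Fam205a2 and 27 and 23 for Fam205a3 in the wild-type lungs. Il11ra2 had 451 and 547 in mutant lobes, against 317 and 292 in wild-type lobes (0.71, adjusted p = 0.103). Ccl19 and its copy Gm2564 went the same way as these neighbours, with Gm2564 at 17 and 18 in mutant lobes, against 4 and 3 in wild-type lobes (2.05, adjusted p = 0.0829), whereas the 5 Ccl21 rows went the other way. Rows of this stretch share sequence, so they are not independent measurements, and their number of independent signals was not tested.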
